A study of Saccharomyces cerevisiae with 8 samples.

Results

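Transcripts of budding yeast (Saccharomyces cerevisiae) lacking CAC2 were compared with those of wild type (WT) while the centromeric histone Cse4 was overproduced. The differences were taken between 4 of the 8 libraries of the study, 2 from cac2 cultures and 2 from WT cultures. The other 4 came from psh1 cac2 and psh1 cultures and are used here to ask whether CAC2 loss gave the same differences without PSH1. They also entered the fit that estimated the spread, so every standard error and adjusted p rests on all 8 libraries. All 4 genotypes carried the Cse4 overexpression system and were treated alike: raffinose cultures were diluted to an OD600 of 0.1, grown for 2 h at 30 °C, given galactose to 4% and grown for a further 10 h. The labels give no promoter, plasmid or mating type, each genotype is 1 strain, and no uninduced library is used here, so no effect of the overproduction itself was measured. Cultures were grown in duplicate. Where the 2 libraries of a genotype share a preparation, p-values measure only the spread between these libraries.

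Cac2 is a subunit of chromatin assembly factor 1 (CAF-1), the histone chaperone that deposits newly made H3 and H4 behind the replication fork. Yeast without CAF-1 is viable, and is known for weakened silencing near telomeres and at the silent mating loci. Cse4 is the H3 variant of centromeric nucleosomes, and Psh1 is the ubiquitin ligase that marks misplaced Cse4 for degradation. Ty elements are the retrotransposons of yeast, flanked by long terminal repeats (LTRs). They encode a gag frame and a longer gag-pol frame, and Ty1 and Ty2 are far more numerous than Ty3 and Ty4.

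Levels are RPKM, read counts divided by feature length in kilobases and by library size, as the authors scaled them. Differences are cac2 minus WT on log2(RPKM + 1), which understates the change of low features. Of 7126 features, 6276 were tested after the 91 Ty frames had been averaged into 1 unit and 760 features with a mean under 1 RPKM had been left out. Summed over the listed features, the libraries held 32770537 and 34399872 reads in cac2 and 30767522 and 33101818 reads in WT. A feature is called here when its adjusted p from limma is under 0.05 (Benjamini-Hochberg over all 6276).

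In all, 106 features were called (1.69% of those tested). Of these, 63 were higher in cac2 (1% of those tested) and 43 lower (0.685%). The groups did not overlap for any of the 106, nor for 3223 of the 6276 features tested. Only 11 called features differed by at least 1 in size on log2(RPKM + 1), a scale on which low features show less than their change in RPKM. When only the 4 libraries of cac2 and WT were fitted, 32 features were called. With an unadjusted p under 0.05, 597 features were higher and 734 lower. Over all 6276, 3071 differences lay above 0 and 3205 below (median -0.004). Fewer features were called in each of the 4 fits that left out 1 cac2 or WT library. Each such fit has less data and 1 library for that genotype, so the drop cannot show whether the calls rest on any single library. All 106 kept their direction in these 4 fits, and 16 were called in each of them. These were the Ty unit, IMD2, YAR073W, YAR075W, YNR064C, PDR11, NDJ1, HAP1, YCL021W-A, YIL060W and YOR192C-C on the higher side. On the lower side they were CAC2, CUE4, YML101C-A, CYC7 and tI(UAU)D. Every other call named below was lost without at least 1 library.

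CAC2 itself was nearly absent from the strain that lacks it. CAC2 (YML102W) lies on the + strand of chromosome XIII at 68294 to 69700, and only 1 and 2 reads fell in it in cac2, against 837 and 941 reads in WT. That was 0.0233 and 0.0438 RPKM in cac2 and 19.0 and 19.5 RPKM in WT (log2 difference -4.29, SE 0.115, limma adjusted p = 2.44e-06). PSH1 had 24.99 and 26.02 RPKM in cac2 and 28.13 and 26.94 RPKM in WT (-0.11, adjusted p = 0.533). The other 2 CAF-1 subunit genes were not called, RLF2 at 17.1 RPKM in cac2 and 16.7 RPKM in WT, and MSI1 at 13.6 RPKM in cac2 and 15.6 RPKM in WT.

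The gene next to CAC2 was also lower. CUE4 (YML101C, chromosome XIII, 69735 to 70088, - strand) ends 34 bp from the end of CAC2 and encodes a protein with a ubiquitin-binding CUE domain. It had 10.8 and 10.6 RPKM in cac2 and 24.5 and 30.2 RPKM in WT (-1.27, SE 0.114, adjusted p = 0.00271). YML101C-A, which has no match in the reference annotation, had 1.54 and 1.26 RPKM in cac2 against 7.03 and 7.98 RPKM in WT (-1.82, adjusted p = 0.000958). On the other side of CUE4, YML100W-A was higher, with 20 and 19 reads in cac2 against 7 and 9 reads in WT (0.93, adjusted p = 0.0251). The remaining features within 5 kb were not called. TSL1, SNR85, NUP188 and ARG81 had differences of 0.003, 0.44, -0.02 and 0.05, with adjusted p from 0.202 to 0.995. In psh1 cac2 against psh1 the differences were -1.10 for CUE4 (adjusted p = 0.00134) and 1.00 for YML100W-A (adjusted p = 0.00499). TSL1 was called lower in that comparison (-0.69, limma adjusted p = 0.0414). How the deletion was made is not given in the labels, and its part in the levels of these neighbours was not tested.

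**Figure D1:**
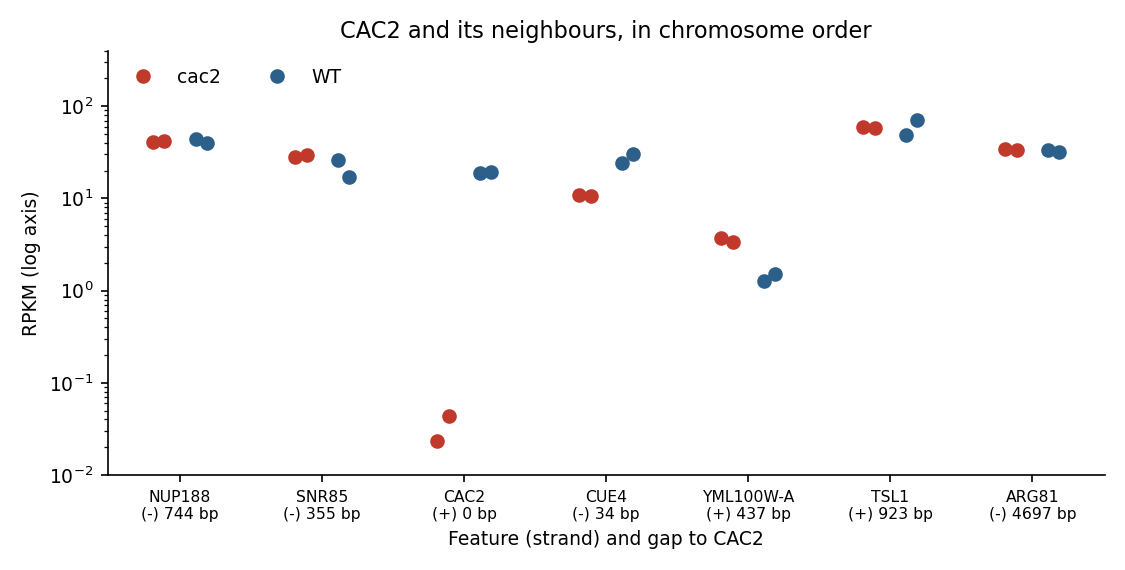
RPKM on a log axis of CAC2 and the tested features within 5 kb, in chromosome order, with 1 point per library, cac2 to the left of WT, and the gap to CAC2 under each name. CAC2 and CUE4 are lower in both cac2 libraries, YML100W-A is higher, and NUP188 and ARG81 lie together.

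Ty transcripts were higher in cac2, and their frames held a large part of the listed reads. Summed over frames, reads were 30.4% and 30.1% of all listed reads in cac2, against 20.2% and 19.4% in WT. Most gag frames lie within a gag-pol frame and copies are near identical. The counting settings are not given, so a read could count more than once and these shares are uncertain. As 1 unit the 91 frames had a mean of 1113 and 1086 RPKM in cac2 and of 671.8 and 633.4 RPKM in WT. Both cac2 libraries lay above both WT libraries, and the unit was called (0.75, SE 0.0746, adjusted p = 0.0038). An exact two-sided permutation test of the 4 values alone gave p = 0.333, the smallest it can give with 2 libraries against 2. In the psh1 background the unit stood at 919.3 and 960.8 RPKM in psh1 cac2 and at 497.7 and 480.7 RPKM in psh1 (0.94).

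The 4 Ty families did not move alike. Ty1 frames averaged 1387 and 1353 RPKM in cac2 against 823.2 and 781.5 RPKM in WT, and Ty2 frames averaged 764.5 and 749.2 RPKM against 501.5 and 457.7 RPKM. Ty3 frames averaged 8.84 and 7.63 RPKM in cac2 and 7.71 and 7.02 RPKM in WT, and its groups overlap. Ty4 frames averaged 8.12 and 7.99 RPKM in cac2 and 7.80 and 6.85 RPKM in WT. With each frame tested on its own, 83 of 91 were called higher and 0 lower, where 2.75% of all features were called higher in that fit. All 61 Ty1 frames (median 0.78) and all 20 Ty2 frames (0.64) were called, but 0 of 3 Ty3 frames (0.17) and 0 of 5 Ty4 frames (0.15). Near-identical copies share reads, so their number is not a number of independent measurements. The ratio of the Ty1 mean to the Ty3 mean was 157 and 177 in cac2 and 107 and 111 in WT, and that of Ty1 to Ty4 was 171 and 169 in cac2 and 106 and 114 in WT. These ratios do not overlap between genotypes, and the exact permutation p was 0.333 for each, the smallest possible.

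**Figure D2:**
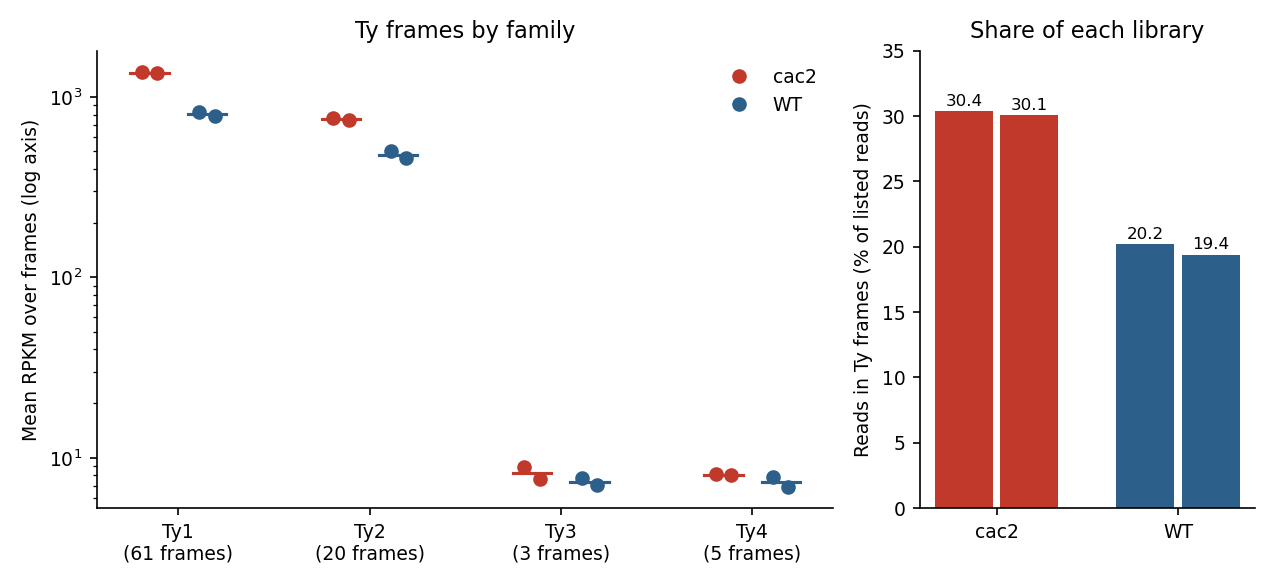
Left: mean RPKM over the frames of each Ty family on a log axis, 1 point per library and a bar at the mean of 2 libraries. Right: share of listed reads that fell in Ty frames, 1 bar per library. Ty1 and Ty2 are higher in cac2 than in WT and Ty3 and Ty4 lie close together.

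Genes of known regulators of Ty transcription were not among the called features. Of 21 such genes tested, limma called 0 in either direction (median 0.02), and 2 were higher and 4 lower at an unadjusted p under 0.05. TEC1, an activator that binds within Ty1, had 37.4 and 39.3 RPKM in cac2 and 46.6 and 43.8 RPKM in WT (-0.23, adjusted p = 0.121). Its partner STE12 had 26.6 and 28.1 RPKM in cac2 and 33.3 and 30.3 RPKM in WT (-0.21, adjusted p = 0.144).

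Several higher features lie beside a Ty element or a lone LTR. Of the 54 higher features with a nuclear position, 12 (22.2%) lie within 1 kb of an LTR, against 2 of 37 lower features (5.41%) and 319 of all 5856 tested (5.45%). The 319 neighbours as a whole did not lean either way, with a median of -0.002 and 156 above 0. Of 14 features that overlap an LTR, 4 were higher and 0 lower (median 0.61). This grouping was made after the values had been seen and carries no test. HAP1 (YLR256W, chromosome XII, 646415 to 650923, + strand), the heme-responsive transcription activator, overlaps an LTR and lies 193 bp from a Ty frame. It had 459 and 444 RPKM in cac2 against 280 and 276 RPKM in WT (0.70, SE 0.0669, adjusted p = 0.00352). Of its 50-base windows, 1.23% occur elsewhere in the genome. NDJ1 (YOL104C, chromosome XV, 116396 to 117454, - strand), which tethers telomeres in meiosis, lies 248 bp from an LTR. It had 50.1 and 56.6 RPKM in cac2 and 31.2 and 32.5 RPKM in WT (0.72, adjusted p = 0.00521). None of its windows occurs elsewhere.

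Most of the other members share no sequence with the rest of the genome at this length. WSC3, a cell wall stress sensor gene 587 bp from NDJ1, was higher as well (0.44, adjusted p = 0.0409). AUS1 (264 bp from an LTR), IRC18 (261 bp) and SRD1 (578 bp) were higher by 0.54, 0.72 and 0.57. Of YER138W-A, YOR192C-C and YIL060W, which overlap LTRs, 98.2%, 73.9% and 27.2% of the windows occur elsewhere in the genome, so reads of Ty elements could count toward them. YCL021W-A, YEL028W and YGR161W-C, 71 bp, 360 bp and 941 bp from an LTR, were higher by 0.70, 0.46 and 0.64. For these 3 and for WSC3, AUS1, IRC18 and SRD1, 0% of the 50-base windows occur elsewhere. On the lower side the group held CPP3 and the ammonium permease gene MEP3 (-0.56), 421 bp from an LTR.

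A second set of higher features lies in a segment repeated at the right ends of chromosomes I and VIII. IMD2 (YHR216W, chromosome VIII, 554396 to 555967, + strand) encodes IMP dehydrogenase, the rate-limiting enzyme of GTP synthesis. It had 56.1 and 62.4 RPKM in cac2 against 25.9 and 24.4 RPKM in WT (1.20, SE 0.0858, adjusted p = 0.000958). RefSeq names YAR073W and YAR075W as its paralog from a segmental duplication on chromosome I. YAR073W had 17.8 and 19.8 RPKM in cac2 and 7.82 and 7.31 RPKM in WT (1.21, adjusted p = 0.000958). YAR075W had 22.2 and 23.3 RPKM in cac2 and 6.60 and 7.14 RPKM in WT (1.59, adjusted p = 0.00229), the largest increase of all features tested. Of the 50-base windows of IMD2, 33.7% occur elsewhere, most of them on chromosome I, so the 3 values are not independent and their split is uncertain.

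Other parts of the same segment were higher too. Among the features in the last 30 kb of chromosomes I and VIII that could be placed and tested, 14 in number, 4 were called higher and 0 lower, and 11 had a difference above 0. Besides IMD2 they were YHR213W-A (0.89), YHR214W (0.80) and YAR068W (0.60), picked out after their values had been seen. YHR213W-A had 3.78 and 4.21 RPKM in cac2 and 1.64 and 1.74 RPKM in WT. All of its windows, 91.1% of those of YHR214W and 88.6% of those of YAR068W occur elsewhere, so reads of their copies could count toward them. YAR066W, the copy of YHR214W on chromosome I, was not called (0.46, limma adjusted p = 0.117). The acid phosphatase genes of the segment were not called, PHO12 at -0.14 and PHO11 at 0. Over all chromosome ends, the 220 features within 20 kb of an end included 6 higher and 2 lower, 167 had values above 0, and their median was 0.13. Scaled to total reads that median was 0.01, where the median of all features was -0.13.

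**Figure D3:**
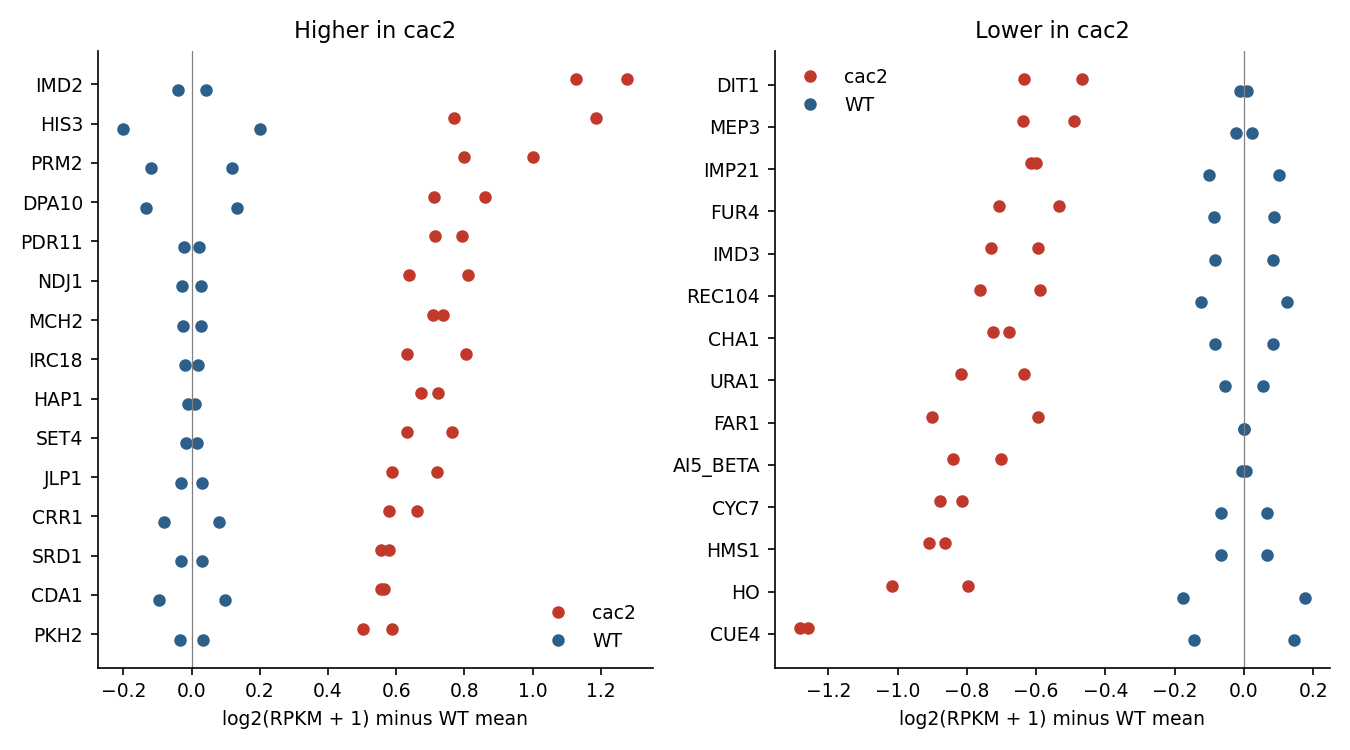
log2(RPKM + 1) of each library minus the WT mean for the called genes with a symbol and the largest differences, 15 higher (left) and 14 lower without CAC2 itself (right), cac2 points drawn above WT points. The 2 genotypes do not overlap for any gene shown. HIS3 and FAR1 show a wide spread between the cac2 libraries.

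IMD2 and IMD3, both genes of IMP dehydrogenase, went in opposite directions. IMD3 had 102 and 112 RPKM in cac2 and 180 and 160 RPKM in WT (-0.66, SE 0.108, adjusted p = 0.0289), and 16.6% of its windows occur elsewhere. Of 26 tested genes of GTP and purine synthesis, IMD2 was the only one called higher and IMD3 the only one called lower. Values below 0 were found for 23 of them (median -0.15), against 3205 of all 6276 features. With quantile normalization the median of the 26 was -0.05. IMD4, the fourth gene of this family, stood at 52.1 RPKM in cac2 and 72 RPKM in WT (-0.46, adjusted p = 0.0779). In the psh1 background IMD2 differed by 1.76 (adjusted p = 9.31e-05) and IMD3 by -0.65 (adjusted p = 0.00799). IMD2 is known for a promoter with a TATA box and several start sites, used according to GTP supply. A TATAAA starts at -308 from the start codon and is shown in capitals (R64, chrVIII:554076-554105, + strand).
IMD2 TATAAA: aaaaaaaaaaagTATAAAtagtgaagactt

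Pyrimidine genes were lower where they were called. URA1 (YKL216W, chromosome XI), dihydroorotate dehydrogenase, had 111 and 126 RPKM in cac2 against 189 and 204 RPKM in WT (-0.73, SE 0.0974, adjusted p = 0.0146). FUR4, the uracil permease, had 31.96 and 28.28 RPKM in cac2 and 49.79 and 43.96 RPKM in WT (-0.62, adjusted p = 0.0174). Of 16 genes tested, these 2 were lower and 0 higher, and 15 had values below 0 (median -0.20). PPR1, the activator of this pathway, averaged 14.9 RPKM in cac2 and 16.9 RPKM in WT (-0.17, adjusted p = 0.335). URA1 carries 2 matches to the Ppr1 site, CGG and CCG with 6 bases of any kind between them, which reads the same on both strands. They start at -212 and -181 from its start codon. Both are printed with the match in capitals (R64, chrXI:24994-25023 and chrXI:25025-25054, + strand).
URA1 first match: tttcttcacCGGGCTTTGCCGaaggttatt
URA1 second match: cacgatcttCGGCATTCGCCGaaaattttt
Such a match lies within 500 bases before the start codon of 4 of 37 lower genes (10.8%), of 1.85% of higher genes and of 2.75% of all 5738 genes searched. The other 3 lower genes were CPP3, PHM8 and CUE4, and FUR4 had none in that window.

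Genes of the G1/S burst, which are made as cells commit to division, were lower where they were called. Of 47 tested, 6 were lower and 0 higher, and 37 had values below 0 (median -0.15). PCL1, a G1 cyclin, had 31.5 and 30.2 RPKM in cac2 against 46.4 and 43.5 RPKM in WT (-0.53, SE 0.0698, adjusted p = 0.014). RNR1, the large subunit of ribonucleotide reductase, had 42.9 and 40.5 RPKM in cac2 and 64.9 and 56.2 RPKM in WT (-0.52, adjusted p = 0.0251). POL30, the replication clamp PCNA that recruits CAF-1 to forks, had 29.3 and 31.1 RPKM in cac2 and 45.5 and 39.6 RPKM in WT (-0.48, adjusted p = 0.0289). The other 3 were TOS4 (-0.39), the mannosyltransferase gene MNN1 (-0.47) and the cyclin gene CLN1 (-0.33). CLN2, its close relative, averaged 22.6 RPKM in cac2 and 32.4 RPKM in WT and missed the threshold (-0.50, adjusted p = 0.0589).

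HO and the reductase gene RNR4 were also lower. HO (YDL227C, chromosome IV), the endonuclease of mating-type switching that is made in late G1, had 8.94 and 7.54 RPKM in cac2 and 18.5 and 14.3 RPKM in WT (-0.90, SE 0.137, adjusted p = 0.0213). It was the only one of 20 tested genes on the list of HO, its regulators and daughter-cell genes to be called (median -0.03). RNR4, a small subunit of ribonucleotide reductase, had 138 and 148 RPKM in cac2 and 200 and 216 RPKM in WT (-0.54, adjusted p = 0.0174). Of 34 genes of the DNA damage response, RNR4, RNR1 and TOS4 were lower and 0 higher. RNR1 and TOS4 are also on the G1/S list. The 34 did not lean either way, with 17 values above 0 and 17 below (median 0.003). At an unadjusted p under 0.05, 5 of them were higher and 5 lower. RNR3, the reductase gene known for its strong induction by damage, averaged 11.5 RPKM in cac2 and 9.54 RPKM in WT (0.25, adjusted p = 0.0843). By limma, 0 of 30 tested G2/M genes were called (median 0.10; 2 higher and 0 lower at an unadjusted p under 0.05). The count was also 0 for 46 kinetochore genes (median 0.06; 6 higher and 2 lower unadjusted). Scaled to total reads, a setting that moves the median of all features from 0 to -0.13, the medians of these 2 lists turn to -0.03 and -0.06.

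Matches to the known sites of the G1/S factors SBF and MBF stood before HO, PCL1, RNR1, POL30, TOS4 and MNN1, and before neither CLN1 nor RNR4 in the window searched. SBF binds CACGAAA (the SCB), with CGCGAAA as a common variant, and MBF binds ACGCGT (the MCB). The variant and the MCB share the letters CGCG and can overlap. All were searched on both strands in the 500 bases before the start codon, and the match is in capitals on the strand of the gene, so that PCL1 shows its SCB as TTTCGTG. The windows are from R64, with HO at chrIV:48477-48506, chrIV:48445-48474 and chrIV:48262-48291 (- strand). PCL1 is at chrXIV:87559-87588 and chrXIV:87583-87612, RNR1 at chrV:298446-298475 and chrV:298496-298525 (+ strand for both genes), and POL30 at chrII:425944-425973 (- strand).
HO SCB at -464: tcttagtaattCACGAAAtaaacctatggt
HO SCB at -432: acgaaatgatcCACGAAAatcatgttatta
HO SCB at -249: aggtgtgaaacCACGAAAagttcaccataa
PCL1 SCB at -327: acgaacaagaaTTTCGTGttaaaaatcgcg
PCL1 variant at -303: atcgcgtccggCGCGAAAtttttcgcggag
RNR1 MCB at -492: acgagcttgtttACGCGTtttatcccatta
RNR1 MCB at -442: taaaaagaaaaaACGCGTaaacagtgtcgg
POL30 MCB at -195: ccaaaacgcgaaACGCGTaacttttttttt
The variant lies before 7 of 37 lower genes (18.9%), 7.41% of higher genes and 6% of all genes. The 7 were POL30, HO, MNN1, TOS4, PCL1, CHA1 and MAL12. The SCB lies before 13.5% of lower, 5.56% of higher and 7.28% of all genes, and the MCB before 5.41%, 1.85% and 5.51%. The shares depend on the window. From 250 bases before to 50 after the start codon, the window planned first, the variant lay in 5.41% of lower, 0% of higher and 3.61% of all genes. In that window the SCB lay in 10.8%, 5.56% and 4.37%, and the MCB in 2.7%, 1.85% and 3.17%. These shares are descriptions of letters in a window, and no binding was measured.

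Mating genes of the a cell type were lower where they were called. STE2, the receptor for alpha factor, had 272 and 290 RPKM in cac2 against 421 and 396 RPKM in WT (-0.54, SE 0.082, adjusted p = 0.0222). It was the only one of 6 tested a-specific genes to be called, and all 6 had values below 0 (median -0.50). MFA2, a gene of a-factor, averaged 788 RPKM in cac2 and 1130 RPKM in WT and just missed (-0.52, adjusted p = 0.0552), as did AGA2 (-0.50, adjusted p = 0.0521). BAR1, which completes the 7 a-specific markers, was listed at 0 in every library. Summed over the 7, levels were 1630 and 1716 RPKM in cac2 and 2448 and 2286 RPKM in WT. The 4 alpha-specific markers summed to 38.2 and 42.1 RPKM in cac2 and to 52.3 and 48.3 RPKM in WT, and limma called 0 of them (2 lower unadjusted). FAR1, which arrests the cell cycle in response to pheromone, had 92.8 and 115 RPKM in cac2 and 174 and 174 RPKM in WT (-0.75, adjusted p = 0.014). GPA1, the G protein subunit of this pathway, had 73.4 and 74.2 RPKM in cac2 and 103 and 98.7 RPKM in WT (-0.44, adjusted p = 0.0156).

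PRM2 went the other way among pheromone response genes. PRM2, a gene of nuclear fusion, had 4.80 and 4.05 RPKM in cac2 and 2.15 and 1.67 RPKM in WT (0.90, SE 0.141, adjusted p = 0.0251). The list of 25 thus held 1 higher and 2 lower genes, and 21 had values below 0. Its promoter has 1 match to the pheromone response element TGAAACA, on the strand opposite to the gene and so printed as TGTTTCA (R64, chrIX:285123-285152, - strand).
PRM2 element at -142: tgttttaaaaaTGTTTCAgcccagtaataa
The element lies before 11.1% of higher, 5.41% of lower and 11.7% of all genes. Of 4 genes of the silent mating loci and MAT limma called 0, with none under 0.05 unadjusted. HMRA2 had 24.9 and 23.1 RPKM in cac2 and 22.2 and 22.7 RPKM in WT, and HMLALPHA2 had 18.8 and 15.4 RPKM in cac2 and 14.4 and 16.1 RPKM in WT (adjusted p = 0.412 and 0.518). Reads of HML, HMR and MAT copies cannot be fully told apart.

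Few chromatin genes were called. Of 10 histone genes limma called 0, with differences from -0.24 to 0.25 (median 0.01) and 1 higher at an unadjusted p under 0.05. HTA1 had 280 and 274 RPKM in cac2 and 229 and 238 RPKM in WT (0.25, adjusted p = 0.108), and HTB1 had 345 and 358 RPKM in cac2 and 313 and 329 RPKM in WT (0.13, adjusted p = 0.334). Of 19 genes of CAF-1 and histone chaperones, CAC2 alone was called. ASF1, the chaperone that hands H3 and H4 to CAF-1, had 11.6 and 12.2 RPKM in cac2 and 15.0 and 14.8 RPKM in WT (-0.30, adjusted p = 0.082). Of 18 silencing factor genes limma called 0 (median 0.04; 2 higher unadjusted). SET4, a chromatin-associated SET domain gene, was higher, with 5.51 and 4.94 RPKM in cac2 and 2.88 and 2.79 RPKM in WT (0.70, adjusted p = 0.0354). SNF11, a subunit gene of the SWI/SNF remodeller chosen after its values were seen, had 33.3 and 31.9 RPKM in cac2 and 24.6 and 24 RPKM in WT (0.41, adjusted p = 0.0174).

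Cytoplasmic ribosomal protein and ribosome assembly genes had small differences, nearly all below 0, and few were called. All 120 tested ribosome assembly genes had values below 0 (median -0.22), of which limma called 0 and 39 were lower at an unadjusted p under 0.05. Of 138 cytoplasmic ribosomal protein genes 137 had values below 0 (median -0.34) and 1 was called lower, where 115 were lower unadjusted. RPL31A had 108 and 96.6 RPKM in cac2 and 157 and 137 RPKM in WT (-0.51, adjusted p = 0.0409). RPS10A missed the threshold with 112 and 101 RPKM in cac2 and 163 and 142 RPKM in WT (-0.51, adjusted p = 0.0537). ASC1, whose product binds the small ribosomal subunit, was lower (-0.53, adjusted p = 0.0367). RNA polymerase I and III genes had 0 of 36 called (median -0.09, with 9 above 0; 4 lower unadjusted), and mitochondrial ribosomal protein genes had 0 of 67 called (median -0.05, with 20 above 0; 13 lower unadjusted). The sign went with level in these libraries: of the 1569 features with the highest mean RPKM, out of 4 classes of equal size, 1149 lay below 0 (median -0.10), and of the 1569 with the lowest mean, 1009 lay above 0 (median 0.06). Quantile normalization gives all libraries the same distribution and so brings the medians of such classes near 0 by design. With it these medians were -7.96e-05 and 0.00159. Those of the cytoplasmic ribosomal protein and ribosome assembly lists were -0.25 and -0.18, and the part of level in them was not tested.

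**Figure D4:**
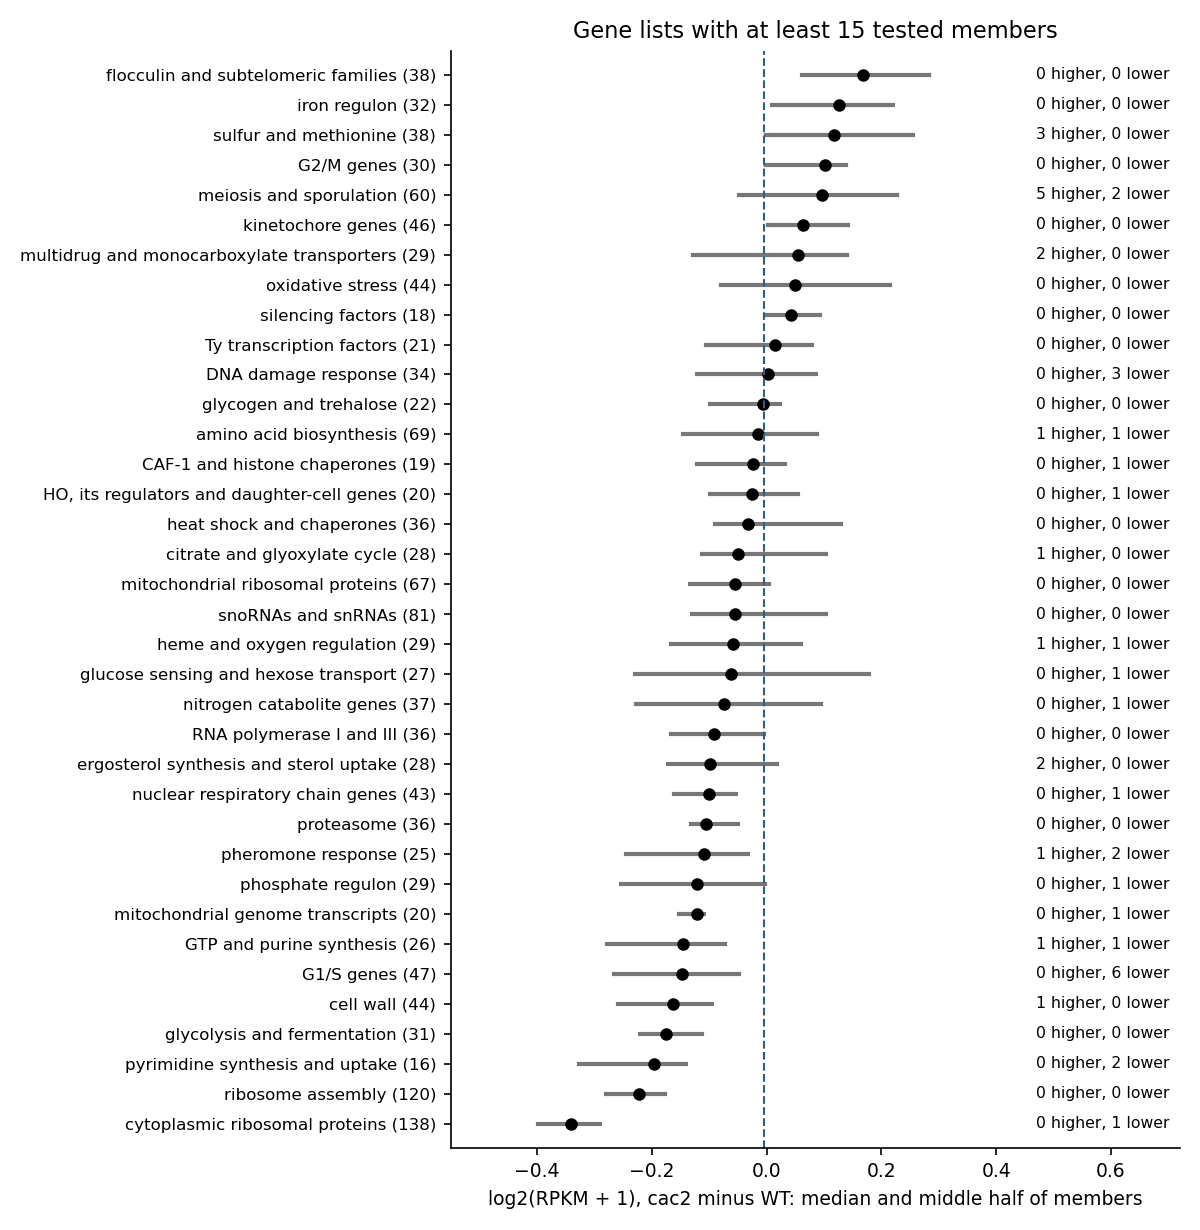
Median (point) and interquartile range (bar) of the log2 difference, cac2 minus WT, over the tested members of each gene list with at least 15 of them, with the number called at the right and the number tested in brackets. The dashed line is the median of all features. Cytoplasmic ribosomal protein, ribosome assembly and pyrimidine genes lie lowest, and flocculin and subtelomeric families highest with 0 called.

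Genes of heme, oxygen and sterol biology were called in both directions. CYC7, the cytochrome c isoform of hypoxic cells, had 63.4 and 66.3 RPKM in cac2 against 112 and 123 RPKM in WT (-0.85, SE 0.0821, adjusted p = 0.00352). With HAP1, which was higher, it made up the calls among 29 tested genes of heme and oxygen regulation (median -0.06). ANB1, another hypoxic gene, averaged 1.34 RPKM in cac2 and 3.33 RPKM in WT (-0.88, adjusted p = 0.0569). The plasma membrane transporters for sterol uptake were both higher. PDR11 had 13.5 and 14.3 RPKM in cac2 and 7.97 and 7.71 RPKM in WT (0.75, SE 0.0641, adjusted p = 0.00259), and AUS1 had 21.2 and 19.8 RPKM in cac2 and 13.9 and 13.6 RPKM in WT (0.54, adjusted p = 0.00521). No other of the 28 genes of ergosterol synthesis and sterol uptake was called (median -0.10). Of 43 nuclear respiratory chain genes CYC7 alone was called, and of 20 transcripts of the mitochondrial genome 1 was called. It was AI5_BETA, an intron-encoded frame of the COX1 gene, with 38.1 and 42.1 RPKM in cac2 and 68.8 and 69.3 RPKM in WT (-0.77, adjusted p = 0.0156).

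Meiosis and sporulation genes, which are low in these cells, held 5 higher and 2 lower genes of 60 tested (median 0.10; -0.01 when scaled to total reads). Besides NDJ1 the higher ones were spore wall genes and SET4. CRR1 had 11.6 and 10.9 RPKM in cac2 and 6.54 and 7.42 RPKM in WT (0.62, adjusted p = 0.0174). CDA1, a chitin deacetylase gene, had 12.8 and 12.9 RPKM in cac2 and 9.05 and 7.79 RPKM in WT (0.56, adjusted p = 0.0174). IRC18, of the outer spore wall, had 10.1 and 8.85 RPKM in cac2 and 5.44 and 5.27 RPKM in WT (0.72, adjusted p = 0.0213). DPA10, 322 bp from CDA1 and known only as a putative mitochondrial protein, was higher at 162 and 146 RPKM in cac2 against 97.6 and 80.9 RPKM in WT (0.78, adjusted p = 0.0173). The lower genes were DIT1, of the dityrosine layer, with 8.33 and 9.48 RPKM in cac2 and 13.4 and 13.6 RPKM in WT (-0.55, adjusted p = 0.0289), and REC104, of meiotic recombination (-0.67, adjusted p = 0.035). The sporulation markers IME1, NDT80, SPS1, SPS2, SPS4, DIT1 and SMK1 summed to 24.96 and 25.56 RPKM in cac2 and to 29.9 and 28.97 RPKM in WT, and DIT1 was the only one of the 5 tested to be called. Their part in these results was not tested.

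Nutrient genes gave scattered calls. Sulfur and methionine genes had 3 of 38 higher and 0 lower (median 0.12; -0.01 when scaled to total reads). JLP1, a dioxygenase that releases sulfur from sulfonates, had 13.5 and 14.9 RPKM in cac2 and 8.45 and 8.85 RPKM in WT (0.65, adjusted p = 0.0164). MET31, a regulator of this pathway, had 17.7 and 17.0 RPKM in cac2 and 13.9 and 13.5 RPKM in WT (0.32, adjusted p = 0.0354), and SOA1, a transporter gene, was higher by 0.46 (adjusted p = 0.0405). CHA1, the serine and threonine deaminase, had 4.87 and 5.06 RPKM in cac2 and 9.28 and 8.16 RPKM in WT (-0.70, adjusted p = 0.0134). CIT3, a mitochondrial methylcitrate synthase gene, had 53.1 and 51.2 RPKM in cac2 and 35.7 and 36.7 RPKM in WT (0.51, adjusted p = 0.0354). CRC1, the mitochondrial carnitine carrier, was higher by 0.48 (adjusted p = 0.00963).

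A list of 18 inositol and choline phospholipid genes, drawn up after values had been seen, held 3 lower and 0 higher, and 16 had values below 0. These were the inositol transporter gene ITR1, with 164 and 156 RPKM in cac2 and 232 and 232 RPKM in WT (-0.54, adjusted p = 0.0156), the choline transporter gene HNM1 (-0.46) and the phosphatidylserine synthase gene CHO1 (-0.37). Other lower genes with large differences were HMS1, a helix-loop-helix regulator of filamentous growth, and IMP21, annotated as an activator of ion homeostasis. HMS1 had 2.16 and 2.26 RPKM in cac2 and 4.67 and 5.21 RPKM in WT (-0.89, adjusted p = 0.014). IMP21 had 31.7 and 32 RPKM in cac2 and 45.7 and 52.7 RPKM in WT (-0.61, adjusted p = 0.0289). Among higher features YNR064C, annotated as an epoxide hydrolase, had 5.63 and 6.14 RPKM in cac2 and 1.83 and 2.00 RPKM in WT (1.24, SE 0.11, adjusted p = 0.00271). MCH2, a relative of monocarboxylate permeases, had 7.09 and 7.25 RPKM in cac2 and 3.86 and 4.04 RPKM in WT (0.72, adjusted p = 0.0174). PKH2, a kinase of sphingolipid signalling, had 38.6 and 41.0 RPKM in cac2 and 27.6 and 26.3 RPKM in WT (0.55, adjusted p = 0.00806).

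Several lists had 0 genes called by limma. At an unadjusted p under 0.05, iron uptake genes had 11 of 32 higher and 0 lower, and flocculin and subtelomeric families had 6 of 38 higher and 1 lower. Heat shock genes had 3 of 36 higher and 4 lower, oxidative stress genes 3 of 44 higher and 1 lower, and glycogen and trehalose genes 0 of 22 higher and 1 lower. Glycolysis genes had 0 of 31 higher and 7 lower, and proteasome genes had 0 of 36 in either direction. As a measure of what an unadjusted p admits, 1331 of all 6276 features were under 0.05. A few further lists had 1 call each. Of 29 phosphate genes PHM8 was lower (-0.43), of 37 nitrogen catabolite genes MEP3 was lower, and of 27 genes of glucose sensing and hexose transport the maltase gene MAL12 was lower (-0.43), 83.6% of whose windows occur elsewhere in the genome.

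The induced gene and the marker gene HIS3 were the most abundant of the named transcripts. CSE4 had 17956 and 19968 RPKM in cac2 and 16625 and 14586 RPKM in WT, and the difference missed the threshold (0.28, SE 0.0967, adjusted p = 0.165). HIS3, of histidine synthesis and a common selectable marker, had 11703 and 8773 RPKM in cac2 and 5917 and 4474 RPKM in WT (0.98, SE 0.163, adjusted p = 0.0289). HIS3 was called in 2 of the 4 fits that left out a library. YOR203W, a frame with no match in the reference, moved by the same amount. It had 5670 and 4370 RPKM in cac2 and 2870 and 2140 RPKM in WT (1.00). Its systematic name follows that of HIS3 (YOR202W), so the 2 may share reads and are not taken as independent. Whether HIS3 marks a plasmid here is not given in the labels. In the galactose regulon GAL4, the activator, was higher, with 11.99 and 10.84 RPKM in cac2 and 7.67 and 7.55 RPKM in WT (0.53, adjusted p = 0.0174). FUR4, which that list also holds, was its 1 gene called lower of 12 tested (median -0.27). Values below 0 were found for 10 of the 12, and at an unadjusted p under 0.05, 1 was higher and 6 lower. GAL1, the galactokinase gene, averaged 1440 RPKM in cac2 and 2020 RPKM in WT (-0.49, adjusted p = 0.0805).

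A few tRNA genes gave large differences at low counts. Of 62 tested, 2 were higher and 2 lower. The isoleucine tRNA gene tI(UAU)D had 2.22 and 3.01 RPKM in cac2 and 13.7 and 13.4 RPKM in WT (-2.02, SE 0.118, adjusted p = 0.000549). The glycine tRNA gene tG(GCC)P1 had 0.922 and 1.73 RPKM in cac2 and 3.60 and 4.11 RPKM in WT (-1.08, adjusted p = 0.0349). The aspartate tRNA gene tD(GUC)N had 33.7 and 29.9 RPKM in cac2 and 15.7 and 11.5 RPKM in WT (1.18, adjusted p = 0.0174), and tN(GUU)P, for asparagine, was higher by 0.72 (adjusted p = 0.014). Copies of a tRNA gene are near identical, so it is uncertain which copy the reads came from. Of 81 snoRNA and snRNA genes limma called 0 (median -0.05; 5 higher and 7 lower unadjusted).

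The same features were then read in the psh1 background, where psh1 cac2 was set against psh1 and none of the 4 libraries above was used for the difference. In that comparison 607 features (9.67%) were called higher and 757 (12.1%) lower. One fit estimated the spread of each feature for both comparisons, so calls in the 2 are not independent. How many of all tested features had the same direction in both was not counted. Of the 63 features higher in cac2 than in WT, 61 had the same direction and 51 were called higher there too. Of the 43 lower ones, 40 had the same direction and 34 were called lower. Among these, HO had 11.1 and 9.15 RPKM in psh1 cac2 and 34.2 and 31.0 RPKM in psh1 (-1.60), URA1 differed by -1.18 and NDJ1 by 1.23. CSE4 had 23546 and 22798 RPKM in psh1 cac2 and 10127 and 9616 RPKM in psh1 (1.23, adjusted p = 0.000555). Features called in cac2 against WT but not in the psh1 background included REC104 (0.01), PHM8 (0.10), PCL1 (-0.19), DIT1 (-0.27), MAL12 (-0.18) and SNF11 (0.11).

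A direct test of whether the 2 differences were unequal called 1 feature of 6276 (0.0159%). That was tI(UAU)D, which was higher in psh1 cac2, at 17.7 and 21 RPKM, than in psh1, at 6.79 and 7.13 RPKM (1.35, adjusted p = 0.000645). The difference between the 2 comparisons was 3.36 (adjusted p = 0.000307). For all other features, a miss of the threshold in this test does not show that CAC2 loss acted alike in both backgrounds.

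**Figure D5:**
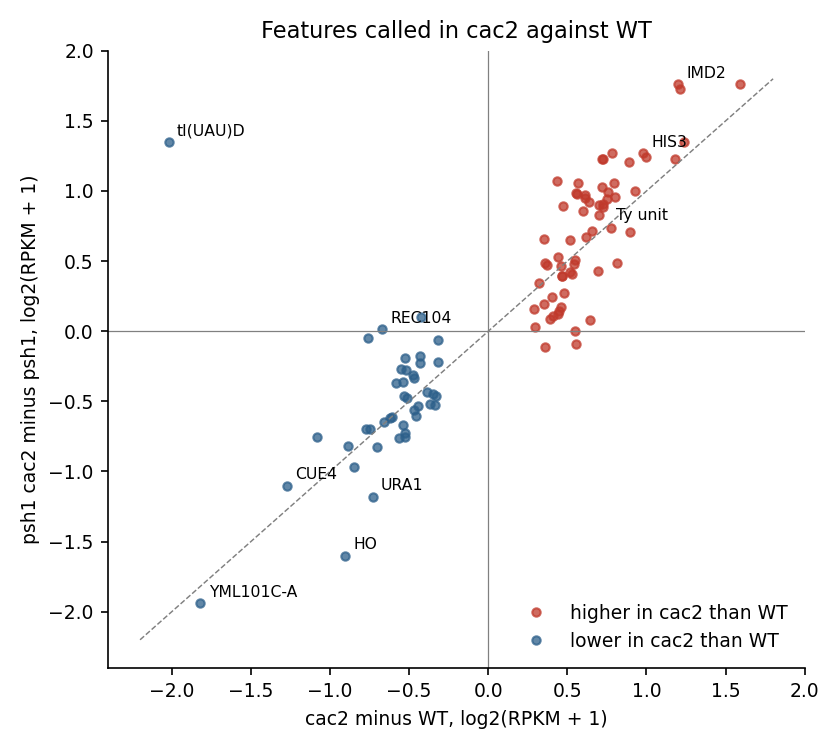
log2 difference of each feature called in cac2 against WT, CAC2 left out (horizontal axis), and of the same feature in psh1 cac2 against psh1 (vertical axis), with a dashed line where both are equal. Most points share their sign on both axes, and tI(UAU)D stands alone in the upper left.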

How the data were processed

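Total RNA was depleted of ribosomal RNA (1000 ng per sample) and made into strand-specific Illumina libraries, per the labels' protocols. The authors deposited 1 table of RPKM values; bcl2fastq 2.18, TopHat2 2.0.13, edgeR 3.14.0 and the build sacCer3 are named in the submitters' processing notes, while no source used here gives the annotation or the counting settings. The RPKM steps gave whole reads for 99.672% of the values of features matched to the reference (tolerance 0.01 reads, reference span as length). The reference span was used for 6148 features, and 958 others were given the smallest length that makes their values whole, so their reads are whole by construction. The steps also gave a library size whose ratio to the reads was 0.932 and 0.944 in cac2 and 1.02 and 1.04 in WT, so the deposited RPKM carry a scaling beyond the total. Totals ran from 30767522 to 34561763 reads.

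From these values log2(RPKM + 1) was computed for features with a mean of at least 1 RPKM over 8 libraries, with 91 Ty frames averaged to 1 row. The frames were those whose RefSeq (assembly R64) product names gag. limma 3.58.1 in R 4.3.3 was run over the 8 libraries together, with a mean per genotype and no other covariate (4 residual and 3.86 prior degrees of freedom, intensity trend). The fit was tested on simulated data. Features were matched to R64 by locus tag (6048), symbol (114) or synonym (7), and 957 did not match. Overlapping features and near-identical copies are less certain, and copies were gauged by 50-base windows found elsewhere in R64.

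Named are CAC2, CSE4, PSH1 and HIS3, then the 15 higher and 15 lower called genes with a symbol and the largest differences whose groups do not overlap, and 3 each way without a symbol. Up to 4 called genes of each list with the smallest p, or the 2 nearest to the threshold, and the features within 5 kb of CAC2 were added. Others were named after their values were seen. The members, lists and motifs were chosen with earlier results of these data known. Alternatives covered scaling, pseudocount, filter, treatment of Ty frames, samples in the fit, the replicate number as a block, and each library left out. Replicate libraries differed by more than sampling noise (chi-square per degree of freedom 26.4 to 44.8), so each counts as 1 replicate.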

Additional observations from a re-analysis of the deposited data

Results flagged for a closer look

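The isoleucine tRNA gene tI(UAU)D differed between the 2 backgrounds by a test of the difference itself. It was lower in cac2 than in WT (-2.02) and higher in psh1 cac2 than in psh1 (1.35), a difference of 3.36 on the log2(RPKM + 1) scale (limma adjusted p = 0.000307). Its reads are few and its copies near identical, and what lies behind the difference was not tested. Groups of 2 libraries are too small for a test of outlying samples.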

How the results depend on the processing

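The Ty unit was called under every alternative that has one (it has no value where frames are separate or left out), with differences from 0.62 (scaled to total reads) to 0.84 (quantile normalization). The count of 106 calls (63 higher, 43 lower) was 32 (23 and 9) when only the 4 libraries of cac2 and WT were fitted, 271 (175 and 96) with each Ty frame as a row and 1197 (1118 lower) when scaled to total reads, which shifts the median of all features to -0.13. Lower calls numbered 24 without a filter on low values, and higher calls numbered 119 when scaled to the reads outside Ty frames, an alternative chosen after seeing the data. Leaving out 1 library gave 20 to 36 calls, 13 to 28 higher and 6 to 13 lower. In these fits the lone library is assumed to vary like the others. With the replicate number as a block there were 644 calls (197 higher and 447 lower). The numbers did not pair all samples, since the correlation of replicate deviations was 0.309 for cac2 and WT but 0.0386 for cac2 and psh1 cac2. The test of the difference between backgrounds called 1 feature, 3 with quantile normalization and 115 with the block, and 1 to 39 when a library was left out, the 39 being without cac2 replicate 2. All 106 called features kept their sign in the 4 fits that left out a library and when scaled to total reads. Under the other alternatives the sign was compared only for the Ty unit and the genes named by the stated rule. None of the called ones among these changed sign. With 2 libraries per genotype, the smallest difference called was 0.292 in size.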
